A study of Homo sapiens with 16 samples.

Results

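The 10 genes described here make, cut or draw on ADP-ribose: PARP1, PARP2, PARP3, PARG, NUDT5, NUDT9, CD38, NAMPT, NMNAT1 and SIRT1. They are named for their place around the channel TRPM2 by a rule that uses no measured value, although earlier results of these data were known when they were named, and were found by Ensembl identifier in the expression tables, where they are 10 of 26410 genes. The cells were SH-SY5Y, an established human neuroblastoma line, and 16 poly(A) RNA libraries fell into 4 groups of 4. Scr cells carried a scrambled guide RNA and TRPM2 KO cells a guide to TRPM2, in both cases delivered with Cas9 and a donor that holds GFP and puromycin resistance, and all groups had passed through puromycin selection and single-cell cloning. Each genotype was read untreated and after 24 h of doxorubicin. The dose was 0.3 µM by the sample labels and by the published legends for this RNA-seq, and 3 µM in the text on the whole series. Each genotype rests on 2 single-cell clones, Scr13 and Scr16 or KO11 and KO28, each sequenced in duplicate at each treatment, so the 2 libraries of a clone share its history. The methods call the duplicates biological replicates, but neither they nor the labels say whether these were separate cultures. If not, spread between duplicates is technical. The main fits took the 4 libraries of a group as separate units, without a term for clone, although a genotype has 2 clones. Their p-values therefore mix spread between clones with spread between duplicates, and comparisons with doxorubicin were not paired by clone.

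ADP-ribose is built from NAD+. PARP enzymes split NAD+ and chain the ADP-ribose units onto proteins at DNA breaks, PARG cuts the chains into free ADP-ribose, and NUDT hydrolases break free ADP-ribose down. CD38 makes ADP-ribose and cyclic ADP-ribose straight from NAD+, and NAMPT and NMNAT1 refill the NAD+ pool that PARPs and sirtuins consume. Free ADP-ribose opens TRPM2, a calcium-permeable channel whose C-terminal domain resembles NUDT9. Doxorubicin, a topoisomerase II poison, breaks DNA.

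All values are normalised counts per gene (CPM), scaled by the authors to a common library size and for composition. Libraries held 10481177 to 25086085 reads, with a median of 16037366.5, and 3 reads, taken as the floor of detection, were worth 0.118 to 0.285 CPM. Differences are log2 fold changes on the log2(CPM + 1) scale, which understates the change of genes near 1 CPM. They are given with their standard error (SE) and the Benjamini-Hochberg adjusted p of limma over all genes tested, and 0.05 was the threshold for a call.

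Reads of TRPM2 went against the label. The guide RNA, shown with its PAM in capitals because it sets what was meant to be cut, matches the plus strand at chr21:44353718-44353737 (GRCh38), in the coding part of exon 1 or 2 of the annotated TRPM2 transcripts, and begins 17 bases after the first base of the start codon.
TRPM2 guide: gaggaaagctggctcggagcAGG
The 4 untreated Scr libraries held 0.118, 0.115, 0 and 0 CPM of TRPM2 (3, 2, 0 and 0 reads), and the 4 untreated libraries labelled TRPM2 KO held 1.93, 2.23, 1.41 and 2.19 CPM (35, 37, 21 and 30 reads). The groups did not overlap, and the libraries labelled KO were the higher ones. TRPM2 passed the filter on low genes through those libraries alone, and the fit of all genes without a filter gave a log2 difference of 1.47 (adjusted p = 0.00158, limma). After doxorubicin, TRPM2 stood at 0.0594, 0.0631, 1.33 and 0.39 CPM in Scr. In treated libraries labelled KO it stood at 1.22, 1.83, 1.37 and 0.658 CPM, and the groups overlap. The fit without a filter gave a log2 difference of 0.69 after doxorubicin (adjusted p = 0.278, limma). By the methods, KO cells were authenticated with RT-PCR and Western blotting, DNA for the first 40 amino acids was deleted and the rest of the sequence was put out of frame, so that transcript of the gene can remain. Counts per gene do not show whether the edited stretch was read, and the antisense gene of TRPM2 was not analysed here. Genotypes below are those of the labels, and every direction between Scr and KO is drawn from the labels alone, since the TRPM2 reads do not check them.

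Markers of neuroblasts were abundant in all libraries. Summed over 9 markers, medians were 4994 CPM in Scr untreated, 5227 in KO untreated, 5322 in Scr after doxorubicin and 4964 in KO after doxorubicin. DBH, the enzyme that makes noradrenaline, averaged 1635 CPM in untreated Scr and HAND2, a sympathetic transcription factor, 1401 CPM, whereas TH, which starts catecholamine synthesis, reached at most 1.13 CPM in any library. Blood cell markers (CD14, CD79A and ITGAM) summed to at most 1.96 CPM, and ITGAM was at 0 in all 8 untreated libraries. The libraries also differed in mesenchymal genes, of which 6 of 7 were in the tables (PRRX1 was not analysed here). The untreated Scr libraries summed to 870.5, 411, 535 and 569.96 CPM over these genes, and the untreated libraries labelled KO to 934, 818, 1109.9 and 1019 CPM. After doxorubicin the sums were 522, 437, 719 and 595 CPM in Scr and 1072, 841, 1170.4 and 964 CPM in KO. Of this list, 4 genes were higher and 1 was lower in libraries labelled KO at both treatments by limma, while DESeq2 called 1 higher and 1 lower untreated. Over all genes tested, limma called 2.3% higher and 2.54% lower untreated, and 4.52% and 4.17% after doxorubicin. VIM, the intermediate filament vimentin, had the highest mean CPM of the list in KO and differed by 1.10 untreated and 1.23 after doxorubicin (log2). FN1, fibronectin, differed by 1.55 and 2.14, and the fibrillar collagens COL1A1 by 1.52 and 1.51 and COL3A1 by 2.17 and 2.88. TWIST1, a mesenchymal transcription factor with the highest mean CPM of the list in Scr, was the lower one, at −0.53 and −0.64. COL1A2 reached at most 3.03 CPM and was at 0 in 2 treated Scr libraries. Scr13 untreated replicate 1 stood apart from its duplicate, with 139 against 10.8 CPM of COL3A1. The part of these differences in the results on ADP-ribose genes was not tested, and in bulk RNA fewer cells of a type and less RNA per cell cannot be told apart.

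**Figure D1:**
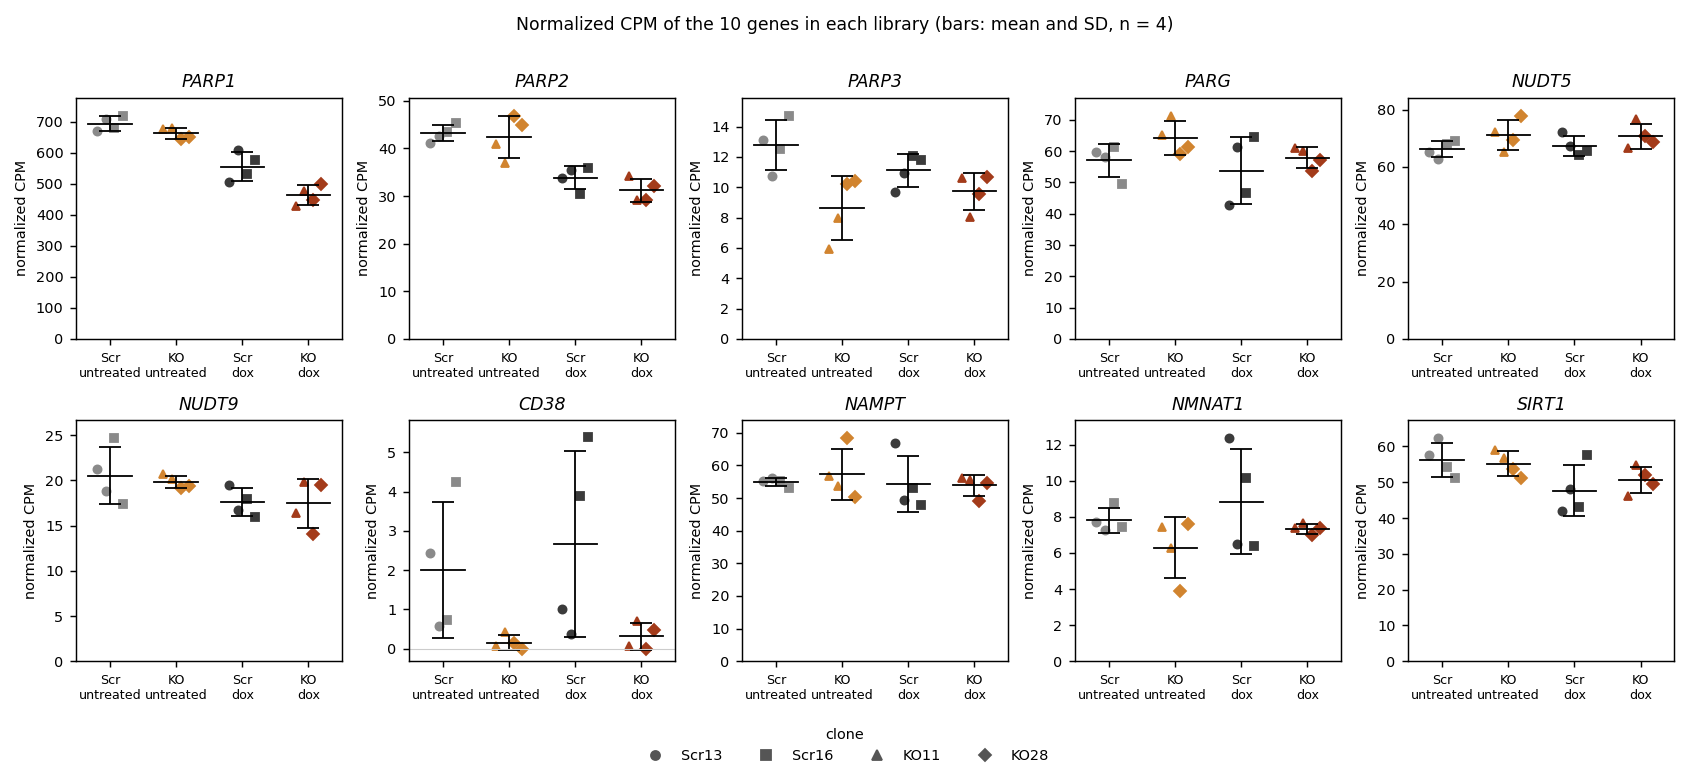
Normalised CPM of the 10 genes in each of the 16 libraries, one panel a gene on its own linear axis that includes 0, with groups along the x axis, points for libraries (shapes mark clones) and bars for the group mean and SD (n = 4). PARP1 is lower in both doxorubicin groups than in either untreated group, and CD38 lies at or under 0.693 CPM in every library labelled KO.

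Levels of the 10 genes spanned a wide range. Compared per kilobase of merged exons in untreated Scr, PARP1 came first at 96.9 ± 3.18 CPM per kilobase (SD, n = 4). NUDT5 (13.3 ± 0.554), SIRT1 (12.4 ± 1.06), PARG (11.1 ± 1.03) and PARP2 (10.5 ± 0.412) followed, and each of these neighbours overlapped the next. NUDT9 (6.45 ± 0.998) and NAMPT (6.07 ± 0.150) overlapped as well. PARP3 (4.36 ± 0.556), NMNAT1 (1.69 ± 0.148) and CD38 (0.292 ± 0.252) closed the order without overlap between neighbours. PARP1 alone took 66.1% to 69.8% of the summed CPM of the 10 genes in untreated libraries, 62.8% to 67.3% in Scr after doxorubicin and 58.9% to 62.5% in libraries labelled KO after doxorubicin.

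PARP1 (chr1:226360691-226408079, minus strand), the enzyme that makes most poly(ADP-ribose) at DNA breaks, fell after doxorubicin in both genotypes. Untreated Scr libraries held 672, 708, 679 and 719.6 CPM, and after doxorubicin 506, 608, 531 and 577 CPM. No treated Scr library reached an untreated one, and the fitted change was −0.33 ± 0.07 (SE, fold 0.798, adjusted p = 0.00403, limma). In libraries labelled KO the untreated values were 675, 680.1, 645 and 652 CPM and the treated values 428, 478, 449 and 499 CPM. The groups were again apart, with a change of −0.52 ± 0.07 (fold 0.699, adjusted p = 1.45e-05, limma). The fall was seen in 4 of 4 clones, at −0.31 in Scr13, −0.34 in Scr16, −0.58 in KO11 and −0.45 in KO28. The change in KO remained called in 21 of 21 alternatives (highest adjusted p 0.00414, limma), whereas that in Scr was not called without clone Scr13 or without clone Scr16 (adjusted p = 0.0908 and 0.127, limma).

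Between genotypes, PARP1 differed after doxorubicin. Treated libraries labelled KO averaged 464 ± 31.3 CPM (SD, n = 4) and treated Scr libraries 555 ± 45.9 CPM, and the highest of the former, 499 CPM in KO28, lay under the lowest of the latter, 506 CPM in Scr13. The log2 difference was −0.26 ± 0.08 (95% interval −0.42 to −0.10, adjusted p = 0.0391, limma), and the exact two-sided permutation test gave p = 0.0286, the smallest it can give for 4 against 4. The call was lost without Scr13 replicate 2, Scr16 replicate 2, KO11 replicate 1, KO11 replicate 2 or KO28 replicate 1, without any one of the 4 clones, and with no filter on low genes, and over the 21 alternatives the adjusted p of PARP1 ran from 0.00649 to 0.31 (limma, edgeR and DESeq2). Untreated libraries labelled KO averaged 663 ± 17.4 CPM of PARP1 and Scr 695 ± 22.8 CPM, which overlap (log2 difference −0.07, 95% interval −0.19 to 0.06, adjusted p = 0.711, limma). Whether the genotype difference changed with the drug was tested directly, and the change for PARP1 was −0.19 ± 0.10 (95% interval −0.39 to 0.01, adjusted p = 0.681, limma), so a larger fall in KO was not shown.

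PARP2 (chr14:20343582-20357905, plus strand), the second DNA-break PARP, also fell with doxorubicin in both genotypes. Scr libraries went from 41.2, 42.7, 43.5 and 45.3 CPM to 33.8, 35.4, 30.4 and 35.9 CPM, and libraries labelled KO from 41.0, 36.9, 46.9 and 44.9 CPM to 34.2, 29.2, 29.1 and 32.2 CPM. Treated and untreated libraries did not overlap in either. The changes were −0.34 ± 0.10 in Scr (adjusted p = 0.0316) and −0.43 ± 0.11 in KO (adjusted p = 0.00869, both limma). The Scr call was lost without any one of the 4 untreated Scr libraries, without Scr13 treated replicate 1 or Scr16 treated replicate 1, and without either clone (adjusted p of PARP2 over the alternatives 0.0134 to 0.297). The KO call was lost without clone KO28 (adjusted p = 0.163, range 0.00153 to 0.163, limma, edgeR and DESeq2). Between genotypes PARP2 overlapped at both treatments (log2 difference −0.03 untreated, adjusted p = 0.941, and −0.12 after doxorubicin, adjusted p = 0.638, limma).

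PARP3 (chr3:51942345-51948867, plus strand), a mono-ADP-ribosyltransferase of the same DNA-break branch, passed in no comparison. Untreated Scr libraries held 13.1, 10.8, 12.5 and 14.7 CPM and untreated libraries labelled KO 5.95, 7.95, 10.2 and 10.4 CPM. The groups did not overlap, KO11 being the lower of the KO clones, but the difference of −0.54 ± 0.19 did not pass over all genes (95% interval −0.93 to −0.14, adjusted p = 0.134, limma; exact permutation p = 0.0286). Without clone KO28 it was −0.80 and passed (adjusted p = 0.0249, limma). After doxorubicin the values were 9.68, 10.9, 12.1 and 11.8 CPM in Scr and 10.6, 8.06, 9.55 and 10.7 CPM in KO, which overlap (log2 difference −0.18, adjusted p = 0.652, limma). With doxorubicin PARP3 differed by −0.18 in Scr and 0.18 in KO (adjusted p = 0.536 and 0.602, limma), and by clone by −0.19 in Scr13, −0.17 in Scr16, 0.38 in KO11 and −0.03 in KO28.

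Promoters of PARP1 and PARP2 are printed since both genes fell with the drug, and that of MCM3 since no gene of the nearest-pattern search below lay closer to PARP1. Each runs from 250 bases before to 50 bases after the RefSeq start, 5′ to 3′ on the gene's strand (GRCh38.p14), at chr1:226408044-226408343 (minus), chr14:20343385-20343684 (plus) and chr6:52284693-52284992 (minus). Capitals mark the motifs searched on both strands: the E2F motif TTTGGCGC or TTTCCCGC, the GC box GGGCGG, and the CRE TGACGTCA.
PARP1 promoter: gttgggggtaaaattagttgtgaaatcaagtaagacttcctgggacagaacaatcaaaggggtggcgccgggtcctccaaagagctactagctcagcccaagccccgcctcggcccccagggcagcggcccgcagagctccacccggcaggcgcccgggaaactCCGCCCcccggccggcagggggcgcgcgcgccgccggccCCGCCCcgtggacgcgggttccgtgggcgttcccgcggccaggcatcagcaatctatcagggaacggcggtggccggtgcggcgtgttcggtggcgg
PARP2 promoter: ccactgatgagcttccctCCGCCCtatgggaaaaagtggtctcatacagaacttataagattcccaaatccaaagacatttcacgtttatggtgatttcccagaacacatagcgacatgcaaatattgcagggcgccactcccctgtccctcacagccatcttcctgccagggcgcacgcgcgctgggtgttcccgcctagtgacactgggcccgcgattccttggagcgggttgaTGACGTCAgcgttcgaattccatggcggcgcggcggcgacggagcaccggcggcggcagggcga
MCM3 promoter: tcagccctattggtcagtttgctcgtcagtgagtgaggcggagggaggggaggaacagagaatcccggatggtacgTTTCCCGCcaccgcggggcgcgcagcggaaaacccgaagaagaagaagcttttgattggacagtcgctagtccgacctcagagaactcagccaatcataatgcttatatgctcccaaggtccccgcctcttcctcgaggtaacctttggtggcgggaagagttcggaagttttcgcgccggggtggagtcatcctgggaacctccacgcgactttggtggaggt
The PARP1 window holds 2 GC boxes, the PARP2 window 1 GC box and 1 CRE, and the MCM3 window 1 E2F motif. Of 35116 RefSeq promoters of this length, 2.27% hold the E2F motif, 45.0% the GC box and 1.85% the CRE. A promoter was found for 9 of the 10 genes, that of NUDT9 being the one not matched, and 0 of these 9 held the E2F motif. Of the other genes that the nearest-pattern search placed beside PARP1, the windows of LMNB1, DNMT1 and HDGF hold 0 E2F motifs, and MCM7 holds 1 in 1 of its 3 windows. GC content was 70.0% for PARP1 and 58.3% for PARP2, against a median of 58.7% over all promoters. These letters describe the windows and are not evidence of binding.

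CD38, the NAD+ glycohydrolase at the cell surface (chr4:15778275-15853230, plus strand), was near the floor in libraries labelled KO. Untreated Scr libraries held 2.44, 0.576, 0.736 and 4.26 CPM (62, 10, 12 and 75 reads), and untreated libraries labelled KO 0.0551, 0.422, 0.134 and 0 CPM (1, 7, 2 and 0 reads). The lowest Scr library lay just above the highest KO library, and duplicates of each Scr clone differed several-fold. CD38 was too low for the fit at either treatment, and the exact two-sided permutation test gave p = 0.0286. Over pooled reads scaled for depth Scr exceeded KO 13.2-fold (95% counting interval 7.02 to 28.2, counting error only). This fold depends on single libraries, since KO11 replicate 2 held 7 of the 10 KO reads and Scr16 replicate 2 held 75 of the 159 Scr reads. After doxorubicin Scr held 1.01, 0.379, 3.9 and 5.39 CPM and KO 0.064, 0.693, 0 and 0.478 CPM, which overlap (exact permutation p = 0.0857, 8.07-fold over pooled reads, counting interval 5.04 to 13.6). Of the 20 treated KO reads, KO11 replicate 2 held 11. In all, 20 exact tests were run over the 10 genes and both treatments, and these p-values were not adjusted.

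PARG (chr10:49818279-49970203, minus strand), which cuts poly(ADP-ribose) chains, did not pass in any comparison. Untreated Scr libraries held 59.8, 58.0, 61.2 and 49.4 CPM and untreated libraries labelled KO 65.0, 71.3, 59.1 and 61.3 CPM (log2 difference 0.17, 95% interval −0.03 to 0.36, adjusted p = 0.46, limma). Treated Scr libraries ranged from 42.7 to 64.3 CPM and treated KO libraries from 53.5 to 60.9 CPM. The ratio of PARP1 to PARG CPM was 11.1 to 14.6 in untreated Scr, 9.54 to 10.9 in untreated KO, 8.97 to 11.8 in treated Scr and 7.04 to 8.74 in treated KO. The ratio of PARP1 to PARP2 was 15.6 to 16.6 and 13.8 to 18.4 in untreated Scr and KO, and 14.96 to 17.4 and 12.5 to 16.4 in treated Scr and KO. Genotypes were apart in the first ratio and overlapped in the second at both treatments, and neither was tested. PARG counts are uncertain: the pseudogene PARGP1 took 95 to 226 reads a library, and TIMM23B lies on the opposite strand.

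NUDT5 (chr10:12165325-12196144, minus strand), a cytosolic ADP-ribose pyrophosphatase, stayed between 62.8 and 77.8 CPM in all 16 libraries. NUDT9 (chr4:87422582-87459454, plus strand), the mitochondrial ADP-ribose pyrophosphatase, ranged from 14.1 to 24.7 CPM. Their differences between genotypes were 0.10 and −0.04 untreated and 0.07 and −0.02 after doxorubicin (log2), and none passed. With doxorubicin NUDT9 changed by −0.21 in Scr and −0.18 in KO, lower in 4 of 4 clones, and neither passed. NUDT5 lies across from SEC61A2 and CDC123 on the other strand, and whether counting used strand is not given in the sources used here.

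NAMPT (chr7:106248285-106286326, minus strand), the rate-limiting enzyme of NAD+ salvage, held between 47.8 and 68.3 CPM in all libraries. Its log2 difference between genotypes was 0.05 untreated (95% interval −0.15 to 0.26) and 0.00 after doxorubicin (−0.22 to 0.22). Its pseudogene NAMPTP1 took 43 to 139 reads a library. NMNAT1 (chr1:9943428-9985501, plus strand), the nuclear enzyme that completes NAD+, ranged from 3.89 CPM in KO28 untreated replicate 1 to 12.4 CPM in Scr13 treated replicate 1, and its groups overlapped throughout (log2 difference −0.30 untreated, 95% interval −0.74 to 0.13). SIRT1 (chr10:67884669-67918390, plus strand), a nuclear NAD+-dependent deacetylase, went from 57.5, 62.3, 54.2 and 51.1 CPM to 41.9, 48.0, 43.0 and 57.6 CPM in Scr with doxorubicin. The change of −0.24 ± 0.11 was not called (adjusted p = 0.163, limma), but without Scr16 treated replicate 2, the highest treated library, SIRT1 changed by −0.34 (adjusted p = 0.0439, limma).

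**Figure D2:**
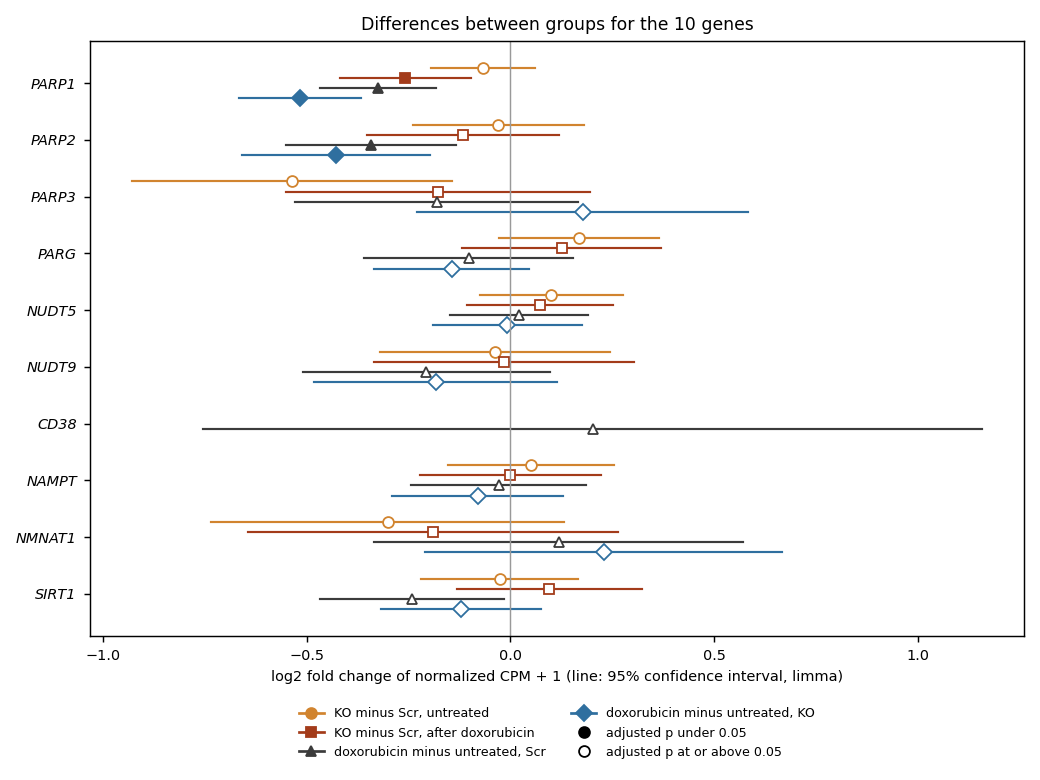
Log2 fold changes of the 10 genes (x axis, log2(CPM + 1) scale) in 4 comparisons, points for limma estimates and lines for 95% intervals, with filled points under an adjusted p of 0.05 and CD38 shown where it was tested. PARP1 and PARP2 lie under 0 with doxorubicin in both genotypes, and PARP1 is the filled point between genotypes after doxorubicin.

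The counts of genes called in the set lay within 1 gene of what the share over all genes gives, and are no result about the set. Between genotypes, 0 of 9 tested passed untreated, where 4.84% of 14364 genes did (2.3% higher, 2.54% lower). PARP3 was the one of the 9 with an unadjusted limma p under 0.05, and edgeR and DESeq2 called 0 of 9. After doxorubicin 1 of 9 passed, lower, against 8.69% of 14572 genes (4.52% higher, 4.17% lower). With doxorubicin, 2 of 10 were lower in Scr, where 11.6% of 14378 genes passed (6.67% higher, 4.94% lower), and 2 of 9 were lower in KO, where 17.5% of 14513 passed (10.1% higher, 7.38% lower). No gene of the set passed the test of whether the genotype difference changed with the drug, 0 of 10 by limma, edgeR and DESeq2, with 0 at an unadjusted limma p under 0.05, and 0.0196% of 15325 genes passed it. Groups did not overlap for PARP3 untreated and for PARP1 after doxorubicin between genotypes, where 9.29% and 13.2% of genes tested were apart. CD38 was apart untreated as well but was not among the genes tested. With doxorubicin PARP1 and PARP2 were apart in both genotypes, against 17.1% of genes in Scr and 19.8% in KO. Median log2 differences of the set were −0.03 and −0.02 between genotypes, untreated and treated, and −0.14 and −0.12 with doxorubicin in Scr and KO, against −0.01, 0.01, −0.01 and 0.02 over all genes tested. Comparisons that share a group are not independent of each other.

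Genes with a pattern like that of PARP1 were searched by distance. Among 10051 genes with a mean of at least 10 CPM, the 5 whose centred log2 values lay closest to those of PARP1 over the 16 libraries were MCM3 (root mean square distance 0.066), LMNB1 (0.070), MCM7 (0.078), DNMT1 (0.084) and HDGF (0.086), where the median gene lay at 0.293. MCM3 and MCM7 are subunits of the replicative helicase, LMNB1 is a nuclear lamin, DNMT1 the maintenance DNA methyltransferase and HDGF a chromatin-associated growth factor. The distance is a description over libraries that share clones and treatments. It also takes in a step between replicate numbers: PARP1 and MCM7 were higher in replicate 2 than in replicate 1 in 8 of 8 pairs of a clone and treatment, MCM3 and DNMT1 in 7 of 8, and LMNB1 and HDGF in 5 of 8, which for both include the 4 treated pairs. The part of this step in the likeness was not tested. For NAMPT the closest were ZBTB43 (0.089), IFT52 (0.095), C1orf74 (0.098), VIRMA (0.100) and ACTR10 (0.101), with the median gene at 0.229.

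**Figure D3:**
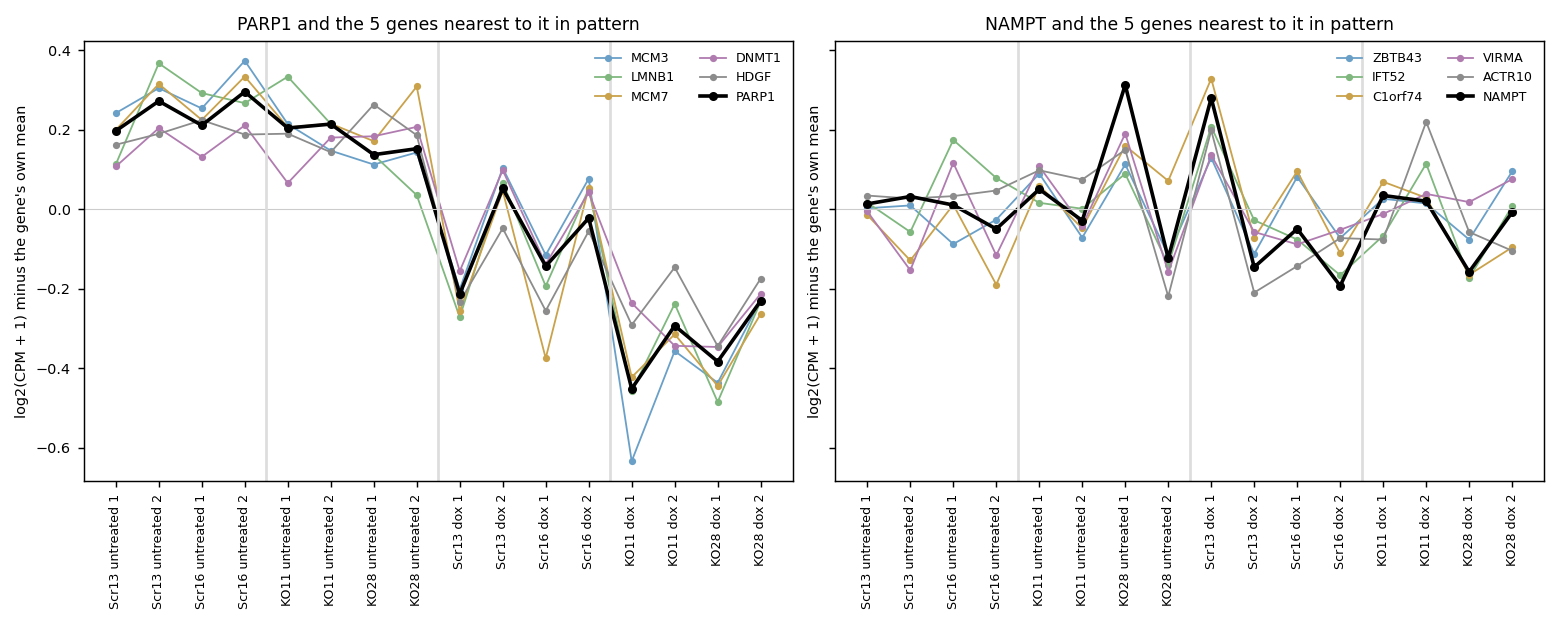
Log2(CPM + 1), centred on each gene's own mean, (y axis) across the 16 libraries (x axis, by group) for PARP1 with its 5 closest genes and for NAMPT with its 5 closest genes. The PARP1 lines step down from untreated to doxorubicin libraries, and the NAMPT lines have no such step.

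Over the 9 proliferation genes looked up, 6 were lower with doxorubicin in Scr and 7 in KO, and 0 were higher. Over all genes tested, 4.94% were lower in Scr and 7.38% in KO. MCM6, a helicase subunit, changed by −0.71 in Scr and −1.02 in KO, MCM5 by −0.77 and −0.93, MCM4 by −0.54 and −0.61, and MCM2 by −0.47 and −0.65. MKI67, the proliferation antigen with the highest CPM of the list, changed by −0.17 in Scr (not called) and −0.39 in KO (called). Between genotypes after doxorubicin, 4 of 9 were lower in KO, against 4.17% of all genes tested. These were TOP2A, the target of doxorubicin (−0.41), MCM2 (−0.93), MCM3 (−0.38) and MCM6 (−0.51). PCNA went the other way and was not called, though its unadjusted limma p was under 0.05. Its treated clone means were 195.3 and 195.4 CPM in Scr and 233.6 and 221.3 CPM in KO. With doxorubicin TOP2A went from 774 to 831 CPM in Scr13 and from 787 to 887 CPM in Scr16. In KO11 it went from 788 to 634 CPM and in KO28 from 695 to 656 CPM, and limma called neither genotype's change. MCM2 was the 1 lower untreated (−0.75), against 2.54% of all genes tested. Some of these calls were lost (limma): that of MCM3 between genotypes with no filter and without clone KO11 (adjusted p up to 0.15), that of MKI67 in KO with no filter and without clone KO11 (up to 0.0797), and in Scr those of MCM2 without clone Scr16 (0.0674) and of MCM3 and MCM7 with no filter and without either clone (up to 0.126 and 0.0979). Summed CPM of the 9 was 3905 to 4374 in untreated Scr and 3842 to 4047 in untreated KO. In treated libraries it was 3259 to 3787 in Scr and 2787 to 3014 in KO. Group medians of the sum had the same order as for PARP1. The sum includes MCM3 and MCM7, picked above for likeness to PARP1 in these libraries, so this order is not independent of that search. Of 5 p53 targets, all 5 were higher with doxorubicin in both genotypes, against 6.67% of all genes tested in Scr and 10.1% in KO. CDKN1A, the cyclin-dependent kinase inhibitor p21, changed by 2.58 in Scr and 2.43 in KO. GDF15, a stress cytokine, changed by 4.36 and 4.53, BTG2, an antiproliferative gene, by 1.86 and 1.95, SESN1 by 0.95 and 1.26 and MDM2, the ligase that degrades p53, by 0.89 and 1.33. After doxorubicin all 5 were higher in KO than in Scr, against 4.52% of all genes tested. CDKN1A differed by 1.13, GDF15 by 0.81, BTG2 by 0.80 and MDM2 by 0.72, the GDF15 call being lost with no filter (adjusted p = 0.0613, limma). Untreated, limma called 2 higher, CDKN1A by 1.27 and BTG2 by 0.71, edgeR 3 and DESeq2 4. Of all genes tested untreated, limma called 2.3% higher. The untreated BTG2 call was lost without clone Scr13 (adjusted p = 0.0911) and without clone KO28 (0.0587, limma). The part of growth state in the PARP1 difference was not tested.

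Of a list of 15, the other PARPs and the PARP1 cofactor HPF1, 14 were in the tables and 13 were tested between genotypes, and 1, PARP14, passed at each treatment. Over all genes tested, 4.84% passed untreated and 8.69% after doxorubicin. PARP14, an interferon-inducible mono-ADP-ribosyltransferase, held 2.91, 3.05, 2.52 and 2.95 CPM in untreated Scr and 0.39, 0.24, 0 and 0 CPM in untreated libraries labelled KO. After doxorubicin it held 3.68, 2.21, 3.71 and 3.12 CPM in Scr and 0, 0.13, 0.07 and 0 CPM in KO. Every library labelled KO lay below every Scr library, with 220 reads in Scr against 11 in KO untreated and 184 against 3 treated. Scr exceeded KO 16.7-fold untreated (95% counting interval 9.13 to 33.9) and 67.3-fold after doxorubicin (22.7 to 329), where each library labelled KO held fewer than 3 reads. Both folds depend on single libraries, since 1 library labelled KO held 7 of the 11 reads untreated and 1 held 2 of the 3 treated. PARP14 passed the filter on low genes through Scr alone, so its call there is no support, and the fit of all genes without a filter gave −1.75 and −1.98 (adjusted p = 0.0017 and 7.82e-04, limma). With doxorubicin 0 of 13 other PARPs passed in Scr and 0 of 12 in KO by limma, edgeR and DESeq2, with 2 and 3 at an unadjusted limma p under 0.05. By limma, 11.6% of all genes tested passed in Scr and 17.5% in KO. TNKS, a tankyrase with the most CPM of the list, stood between 197 and 257 CPM.

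Of 8 other genes that remove ADP-ribose, 1, ADPRH, was called lower in KO at each treatment. Over all genes tested, 2.54% were lower untreated and 4.17% after doxorubicin. ADPRH, which takes ADP-ribose off arginine, held 1.69, 1.21, 1.23 and 3.69 CPM in untreated Scr and 0.331, 0.301, 0 and 0 CPM in untreated KO. After doxorubicin it held 2.02, 2.33, 2.76 and 2.47 CPM in Scr and 0.192, 0.252, 0.392 and 0.717 CPM in KO. The groups were apart at both treatments, and ADPRH too passed the filter through Scr alone, so its calls there are no support. Without a filter the fit gave −1.29 and −1.30 (adjusted p = 0.0409 and 0.00714, limma). The untreated call for ADPRH with the filter was lost without Scr16 replicate 2 and without clones Scr13, Scr16 or KO28, and the treated call without clone KO11 (adjusted p up to 0.212 and 0.121). NUDT14, a UDP-sugar and ADP-ribose hydrolase, rose with doxorubicin in KO (0.59, adjusted p = 0.0392, limma), a call lost in 11 of 21 alternatives (adjusted p 0.0183 to 0.343). NUDT16, with the most CPM of the list, stood between 39.2 and 62.7 CPM.

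Among NAD+ supply genes, 15 of 18 were in the tables and 8 were tested. NADSYN1, the last enzyme of de novo NAD+ synthesis, rose with doxorubicin. Untreated it held 32.1, 29.2, 24.5 and 27.6 CPM in Scr and 31.1, 30.8, 32.99 and 26.4 CPM in KO. After doxorubicin it held 48.0, 45.3, 50.9 and 39.99 CPM in Scr and 77.3, 54.4, 67.0 and 60.0 CPM in KO. Every treated library lay above every untreated one, and treated KO above treated Scr. The changes were 0.68 ± 0.11 in Scr and 1.06 ± 0.11 in KO (adjusted p = 6.62e-04 and 2.86e-07), and the treated genotype difference was 0.48 ± 0.11 (adjusted p = 0.00734, limma). That genotype call was lost with no filter, without KO11 replicate 1 and without clone KO11 or KO28 (adjusted p up to 0.0755), and the change of the genotype difference with drug was 0.38 ± 0.16 (adjusted p = 0.606, limma). NUDT13, a mitochondrial NAD(P)H hydrolase, stood at 1.99 to 3.68 CPM in untreated Scr and 0.292 to 1.27 CPM in untreated KO. In treated libraries it stood at 1.90 to 5.64 CPM in Scr and 0.419 to 1.70 CPM in KO. NUDT13 too passed the filter through Scr, since 2 of 4 libraries labelled KO reached 1 CPM at each treatment, so its calls there are no support. Without a filter the differences were −1.14 and −1.17 and did not pass (adjusted p = 0.0739 and 0.0906, limma). NMNAT2, the neuronal NMN adenylyltransferase with the most CPM of the list, rose in KO with doxorubicin (0.30, adjusted p = 0.00473, limma). The call was lost without clone KO28 (adjusted p = 0.0977, limma), and clone KO11 alone averaged 201 CPM untreated and 234 CPM treated. SARM1, the axonal NAD+ glycohydrolase, did not pass in any comparison and ranged from 156 to 210.4 CPM. Of the other sirtuins SIRT2, a cytosolic deacetylase, rose in Scr with doxorubicin (0.39, adjusted p = 0.0483, limma), a call lost in 12 of 21 alternatives (adjusted p 0.0273 to 0.429).

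**Figure D4:**
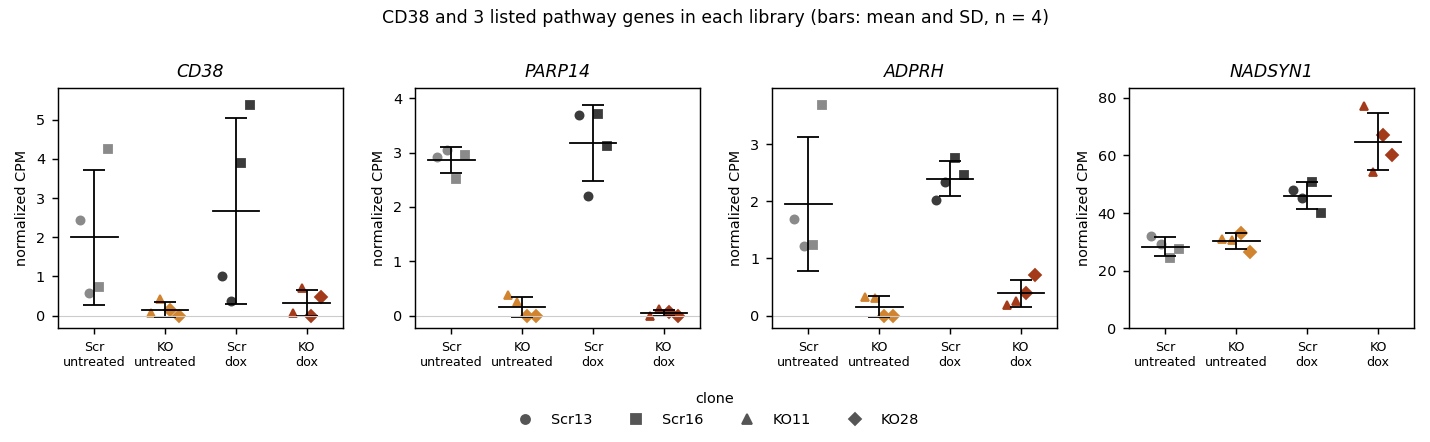
Normalised CPM of CD38, PARP14, ADPRH and NADSYN1 in the 16 libraries, points for libraries (shapes mark clones) and bars for the group mean and SD (n = 4) on linear axes that include 0. PARP14 and ADPRH are near 0 in libraries labelled KO at both treatments, and NADSYN1 is higher in all doxorubicin libraries.

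**Figure D5:**
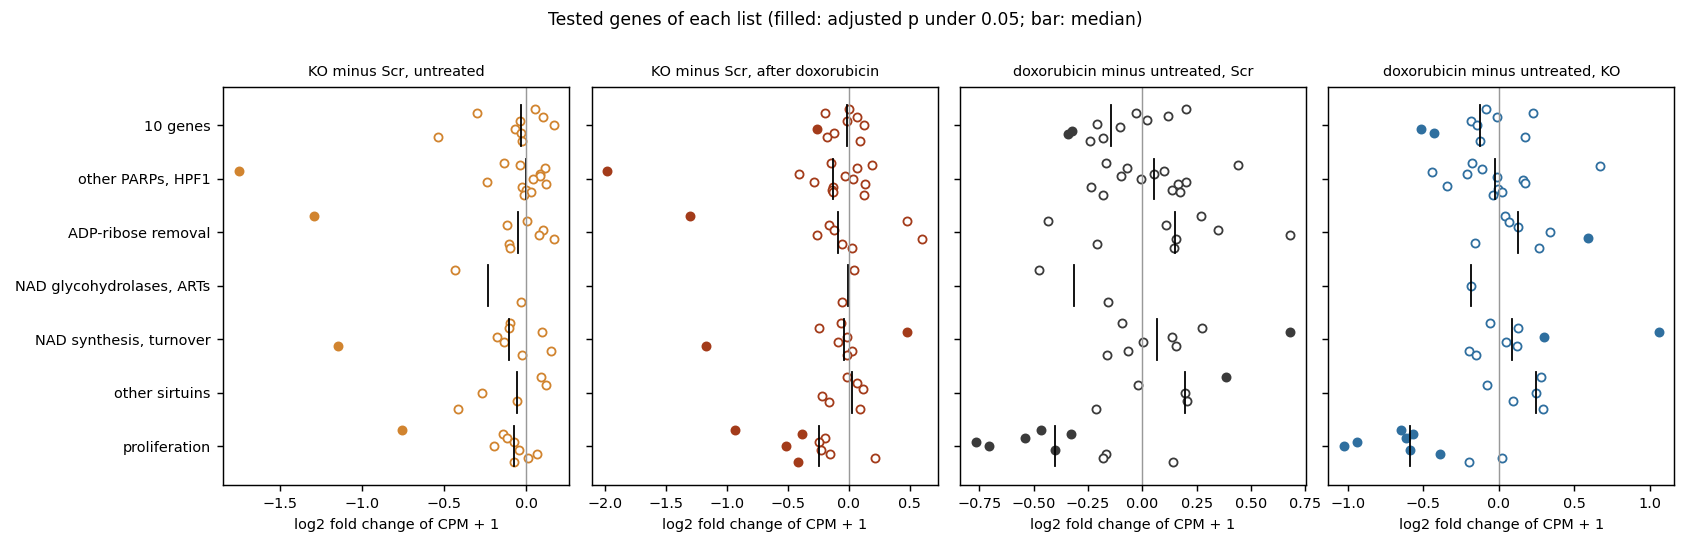
Log2 fold changes (x axis, log2(CPM + 1) scale, a separate range in each panel) of each tested gene of the 10, the other ADP-ribose and NAD lists and the proliferation list, one panel for each of 4 comparisons, with points for genes, filled under an adjusted limma p of 0.05, and bars for list medians. With doxorubicin 8 of 9 proliferation genes lie under 0 in each genotype, and between genotypes PARP14 is the filled point farthest to the left. PARP14, ADPRH and NUDT13 passed the filter on low genes through Scr, so their filled points between genotypes are no support.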

How the data were processed

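RNA of 16 SH-SY5Y libraries was read on a poly(A), strand-specific protocol. Per the submitters' processing notes, reads were aligned to GRCh38 with HISAT2 2.1.0 and counted with HTSeq, with bcl2fastq and edgeR also named; the annotation and the strand setting of counting are not given in the sources used here. The authors deposited 1 table for each treatment with a normalised signal per gene and library (CPM, scaled for library composition), and their own log2 fold changes, p-values and q-values, which were not used. No library column was left without a sample (0 columns).

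Whole reads were recovered from 100% of values (tolerance 0.001 of a read). The factors recovered cover both tables together, so values were compared across them as deposited. limma 3.58.1 (R 4.3.3) was fitted, with a mean trend, to log2(CPM + 1) for genes with at least 1 CPM in at least 4 of the libraries compared, with Benjamini-Hochberg adjustment over all genes tested and a threshold of 0.05. The fit was also run on simulated data, the results of which are not reported here. Exact permutation tests were two-sided and exchanged single libraries. Like the main limma fit and the edgeR and DESeq2 tests, they took no account of the 2 libraries of a clone belonging together. Quasi-likelihood tests of edgeR 4.0.16 on the recovered reads called 636 genes between genotypes untreated and 1194 after doxorubicin, against 695 and 1266 by limma; DESeq2 1.42.0, other filters, pseudocounts and scalings, blocks, and leaving out each library or clone were tried as well. Gene names matched 95.0% of identifiers (GENCODE 29). Over 15325 genes, replicate numbers did not pair libraries (correlations −0.10 to 0.12), although PARP1 and MCM7 were higher in replicate 2 in 8 of 8 pairs.

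The 10 genes, the other lists and the tests were chosen with earlier results of these data known. The text names all 10, TRPM2, up to 4 called genes with the largest change per list and comparison, the most abundant gene per list, the 5 nearest patterns of PARP1 and NAMPT, and pseudogenes and overlapping genes. The cell type markers named were picked after their values were seen. Promoter sequences are from RefSeq. Listed genes without a row in the tables used were not analysed here. The result of 1 marker gene is not reported here. Intervals on reads cover counting error only.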

Additional observations from a re-analysis of the deposited data

Results flagged for a closer look

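Each group of 4 libraries was searched for a library whose gap to its nearest neighbour was above Dixon's 95% critical share of the group's range, over 31 genes and 124 groups. In 3 groups a library stood apart, where chance gives about 1 in 20 groups, and 0 of 40 groups of the 10 ADP-ribose genes were among them. GDF15, a stress-induced cytokine and p53 target, was lowest in KO11 untreated replicate 2 at 3.86 CPM, with the next library at 7.66 CPM. MCM2, a helicase subunit, was highest in KO28 untreated replicate 2 at 197.7 CPM, with the next at 175 CPM. MCM4, another subunit, was lowest in KO28 untreated replicate 1 at 351 CPM, with the next at 389.9 CPM.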

How the results depend on the processing

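With 4 libraries from 2 clones in each group, differences between clones and between genotypes are hard to separate, and genes near the floor of detection, such as CD38, rest on few reads. Of the fold changes followed under other settings, 978 kept direction and side of the threshold, 15 lost their call and 5 changed sign. When a library or clone was left out, 1010 were kept, 64 lost and 2 gained a call and 72 changed sign. Calls gained by edgeR or DESeq2, such as that of SESN1 between genotypes untreated, are not in these counts. None of the sign changes concerned a called value. The causes were not tested.

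Without a filter on low genes, calls between genotypes untreated fell to 368 (159 higher, 209 lower), lower calls after doxorubicin to 386, with 0 of the 10 genes called, and calls with doxorubicin in Scr to 857 (518 higher, 339 lower). For the change of the genotype difference with drug, 3 genes were called (2 higher, 1 lower); DESeq2 called 31 (14 higher, 17 lower), the fit without a filter 5 (5 higher, 0 lower), and a minimum of 10 reads or a pseudocount of 0.25 left 1 higher. With the replicate block, that count was 7, with 4 lower, and no call among the 10 genes changed. PARP1, higher in replicate 2 in 8 of 8 pairs, was with the block at −0.26 between genotypes after doxorubicin (adjusted p = 0.0123, limma). In the change of the genotype difference with drug, CD38 changed sign, to 0.55 (edgeR), 0.58 (DESeq2) and 0.14 (pseudocount 0.25). NAMPT after doxorubicin became 0.0044 between genotypes with TMM over 16 libraries, and NUDT5 in Scr −0.0053 with library size alone.

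Leaving out 1 library or clone gave the following ranges. Between genotypes untreated, 362 (without clone Scr13) to 835 (without clone KO11) genes were called, 160 to 383 higher and 154 to 452 lower, with 0 to 1 of the 10, and log2 differences were −0.15 to 0.087 for PARP2, −0.11 to 0.050 for NUDT9, −0.035 to 0.11 for NAMPT and −0.12 to 0.065 for SIRT1. After doxorubicin, 574 (without clone KO11) to 1342 were called, 316 to 723 higher and 258 to 662 lower, with 0 to 1 of the 10, and NUDT9 was −0.077 to 0.077 and NAMPT −0.095 to 0.10. For the change of the difference, 0 (without clone Scr16) to 5 were called, 0 to 3 higher and 0 to 4 lower, with PARP2 −0.23 to 0.053, PARG −0.14 to 0.053, NUDT5 −0.13 to 0.070, NUDT9 −0.066 to 0.11, CD38 −0.73 to 0.65, NAMPT −0.15 to 0.050, NMNAT1 −0.070 to 0.27 and SIRT1 −0.043 to 0.29. With doxorubicin in Scr, 264 (without clone Scr13) to 1702 were called, 205 to 974 higher and 59 to 774 lower, with 0 to 3 of the 10, and NUDT5 was −0.078 to 0.12, CD38 −0.48 to 0.89, NAMPT −0.13 to 0.044 and NMNAT1 −0.044 to 0.24. In KO, 1040 (without clone KO11) to 2823 were called, 651 to 1611 higher and 389 to 1212 lower, with 1 to 2 of the 10, and PARP3 was −0.026 to 0.38, NUDT5 −0.076 to 0.061 and NAMPT −0.18 to 0.017.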
